A study of Mus musculus with 6 samples.

Results

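The genes that build the scaffold of the excitatory postsynapse were examined for DNA methylation in the dentate gyrus, the hippocampal region in which granule neurons lie, of mice kept in an enriched environment (ENR) or in standard housing (STD). The 9 genes were Shank1, Shank2, Shank3, Dlg4, Dlgap1, Dlgap2, Dlgap3, Dlgap4 and Homer1. They were chosen by name, and a measured CpG site belonged to a gene when it lay between 1 kb upstream of the annotated gene start and the gene end. This gave 1255 of 890041 measured sites, in 9 of the 25544 genes with a measured site. Reduced representation bisulfite sequencing (RRBS), which enriches for CpG-rich DNA, was performed on tissue micro-dissected from 6 female C57BL/6JRj mice aged 4.5 months, 3 in each group. ENR mice had lived in a large enclosure with changing objects, and STD mice in ordinary cages, without any genetic manipulation in either group. ENR mice shared an enclosure, so effects of that enclosure and of enrichment cannot be told apart. Each value is the percentage of reads at a cytosine that were methylated, and the read number behind it is unknown beyond the authors' minimum of 10.

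At an excitatory synapse, glutamate receptors are held in place by layers of scaffold proteins in the postsynaptic density. Dlg4 encodes PSD-95, which binds receptor complexes at the membrane. Dlgap proteins (also called SAPAP or GKAP) bind PSD-95 on one side and Shank proteins on the other. Shank proteins form the deeper layer and bind Homer1, which in turn binds metabotropic glutamate receptors. CpG methylation is usually low at active gene starts and high in gene bodies, and CpG-dense sequence inside genes can escape it.

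Since RRBS reads CpG-rich DNA, the results turned on CpG-dense stretches. A stretch was a run of 200 bp windows in which G and C made up 50% or more and CpGs reached at least 0.6 of the number expected from the base composition. It was called a start stretch when it lay within 1 kb of the start of a protein-coding transcript, and otherwise an intragenic stretch. Sequences of 6 stretches follow, whole for Shank2 and Dlgap2 and in part for the others, from the GRCm38 (mm10) reference, plus strand, which is the coding strand of all 9 genes. Capitals mark the measured CpGs. The sequences were chosen to show coding CpG-dense DNA at low (Shank1), intermediate (Shank2) or high methylation (Dlgap2), an unmethylated gene start (Shank3), and the stretches of Shank3 and Dlg4 in which STD and ENR mice did not overlap. The label coding exon refers to the measured CpGs. Bases at the edge of such a window can lie outside the exon, as at the left end of the Shank2 sequence.
Shank1 coding exon, chr7:44353079-44353378: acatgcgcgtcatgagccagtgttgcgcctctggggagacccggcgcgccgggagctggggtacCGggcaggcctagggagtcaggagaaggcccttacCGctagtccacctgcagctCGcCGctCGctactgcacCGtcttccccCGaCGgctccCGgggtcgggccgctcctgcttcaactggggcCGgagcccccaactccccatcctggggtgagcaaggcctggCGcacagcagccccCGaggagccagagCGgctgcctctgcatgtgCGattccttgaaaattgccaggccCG
Shank2 coding exon, chr7:144420525-144420792: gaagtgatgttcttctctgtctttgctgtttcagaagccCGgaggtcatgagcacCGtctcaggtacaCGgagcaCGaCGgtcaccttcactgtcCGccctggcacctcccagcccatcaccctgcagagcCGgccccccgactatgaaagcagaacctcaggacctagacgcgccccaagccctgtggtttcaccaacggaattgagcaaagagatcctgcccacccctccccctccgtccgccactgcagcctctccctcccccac
Dlgap2 coding exon, chr8:14727288-14727522: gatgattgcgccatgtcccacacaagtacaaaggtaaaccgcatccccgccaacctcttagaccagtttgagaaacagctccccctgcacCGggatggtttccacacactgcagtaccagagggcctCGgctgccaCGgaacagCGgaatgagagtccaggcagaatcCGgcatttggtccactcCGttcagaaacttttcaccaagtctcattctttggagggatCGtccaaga
Shank3 gene start, chr15:89500086-89500385: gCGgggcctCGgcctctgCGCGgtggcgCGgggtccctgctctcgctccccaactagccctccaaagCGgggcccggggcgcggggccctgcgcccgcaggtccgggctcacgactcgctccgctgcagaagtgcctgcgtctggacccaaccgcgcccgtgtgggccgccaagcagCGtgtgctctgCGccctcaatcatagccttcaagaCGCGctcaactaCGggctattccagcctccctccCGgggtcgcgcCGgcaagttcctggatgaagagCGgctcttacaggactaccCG
Shank3 internal start, chr15:89524060-89524359: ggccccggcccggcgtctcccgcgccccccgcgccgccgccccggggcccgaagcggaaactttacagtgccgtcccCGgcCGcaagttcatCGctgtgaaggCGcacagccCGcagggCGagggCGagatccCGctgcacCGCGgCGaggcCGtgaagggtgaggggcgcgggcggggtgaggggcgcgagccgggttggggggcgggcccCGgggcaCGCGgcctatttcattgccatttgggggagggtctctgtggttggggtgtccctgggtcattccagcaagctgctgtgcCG
Dlg4 internal start, chr11:70026989-70027190: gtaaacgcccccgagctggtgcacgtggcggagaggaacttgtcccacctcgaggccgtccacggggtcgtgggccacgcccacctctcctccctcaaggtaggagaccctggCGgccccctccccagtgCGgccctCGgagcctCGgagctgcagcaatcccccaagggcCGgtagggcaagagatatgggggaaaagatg
Over the 6 mice, the 23 sites of the Shank1 sequence had a mean methylation of 14.7%, the 11 sites of the Shank2 sequence 40.4%, and the 11 sites of the Dlgap2 sequence 92.4%. The 15 sites of the Shank3 gene start sequence had a mean of 2.26%. The windows hold 24, 13, 10 and 33 CpGs in the same order, of which 15, 7, 7 and 15 were measured.

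The scaffold genes followed the general layout of the genome. Of their sites, 71.4% lay in CpG-dense stretches, against 70.6% of all sites. Sites of start stretches had a mean methylation of 2.24% (512 sites), those of intragenic stretches 20.7% (384 sites) and the remaining sites 38.4% (359 sites). Over all measured sites the means were 2.89% in start stretches, 37.0% in other CpG-dense stretches, including those outside genes, and 52.3% elsewhere. Intermediate methylation was frequent in the scaffold genes. A mean of 20% to 80% was found at 23.7% of their sites and at 14.6% of all sites, and a mean over 80% at 6.37% and 15.5%. No test was made of these differences, since sites of a gene are not replicates.

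Intragenic stretches of the scaffold genes were mostly at low methylation. With at least 3 measured sites there were 28 such stretches, with a median of 17.6%, and 18 of them were under 20%. Over all 6789 intragenic stretches of the genome the median was 46.6%, and 34.3% were under 20%. The 16 start stretches had a median of 1.91% and all were under 20%, as were 93.4% of the 14579 start stretches of the genome.

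In the Shank genes, intragenic stretches were more methylated than start stretches in every mouse. Averaged over sites of the 3 genes, of which Shank1 held 125, intragenic stretches (188 sites) were at 15.5%, 15.1% and 14.8% in STD mice and at 17.6%, 18.2% and 13.9% in ENR mice. Start stretches (134 sites) were at 3.55%, 3.11% and 3.23% in STD and at 2.50%, 2.82% and 2.63% in ENR. The difference within a mouse was 12.9 ± 1.85 percentage points (SD, n = 6) and had the same sign in 6 of 6 mice (two-sided exact sign-flip permutation test, p = 0.03125, the smallest that 6 mice allow). In Shank1 it was 10.4 ± 2.35 points, in Shank2 24.6 ± 3.12 and in Shank3 13.3 ± 6.97 (SD, n = 6), each in 6 of 6 mice (exact sign-flip permutation test, p = 0.03125 for each gene). The gap in Shank3 varied most, because the intragenic value of ENR replicate 1 was 29.8% where the other 5 mice had 13.0% to 19.0%. Of 1722 genes with enough sites in all classes, 94.4% had a higher intragenic than start value, with a median gap of 34.1 points. The direction in the Shank genes was therefore that of most genes, at a smaller size. The sign-flip tests concern only its recurrence between mice and do not set the Shank genes apart from other genes.

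**Figure D1:**
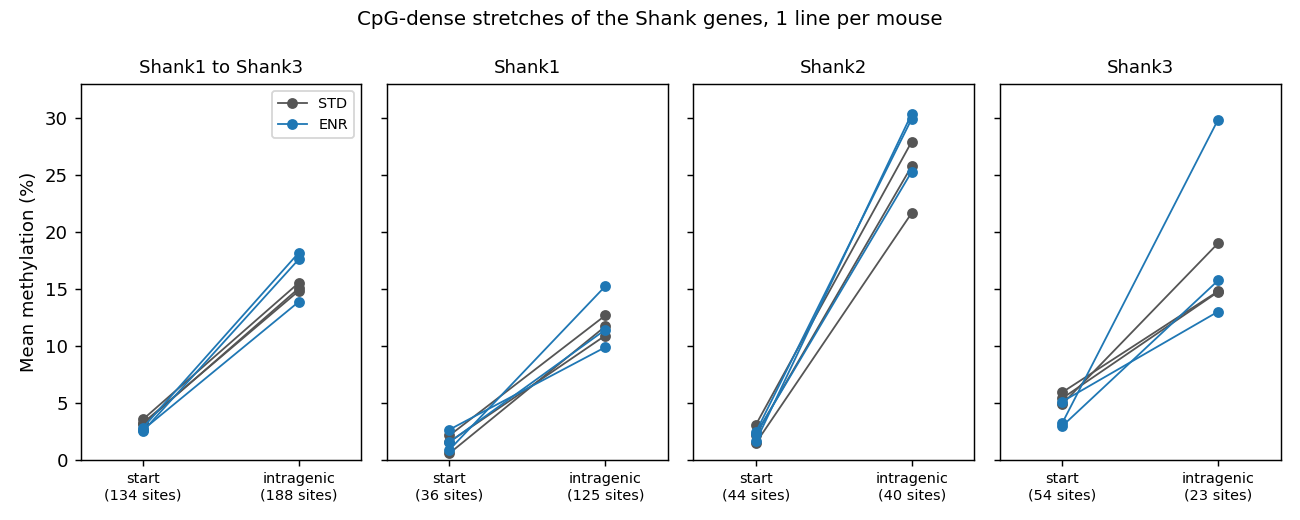
Mean methylation (%, vertical axis) of start and intragenic CpG-dense stretches in each mouse, with grey lines for STD and blue lines for ENR mice, for the 3 Shank genes together and singly. Every line rises, and the Shank3 intragenic value of ENR replicate 1, at 29.8%, stands above the other 5.

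Shank1 (ENSMUSG00000038738.15, chr7:44310253-44360572) was lowly methylated at most measured sites, although 24.1 kb after its start region held no measured site. It was the most densely measured of the 9 genes, with 14.4% of its CpGs covered, and none of its 176 sites had a mean over 80%. The start stretch (36 sites) had a mean of 1.56%. A stretch 25.1 kb into the gene, over the start of a noncoding Shank1 transcript (chr7:44335369-44336419, 21 sites), was at 1.73%, which is the level of the gene start. The longest stretch, 1825 bp of coding sequence (chr7:44351975-44353799, 50 sites), was at 12.2%. Methylation in this stretch was 11.3%, 10.7% and 14.6% in STD and 12.7%, 18.0% and 5.88% in ENR mice. Both group means were 12.2%, with the highest and the lowest value both in ENR. A coding stretch nearer the gene end (chr7:44356773-44357316, 29 sites) was at 17.8%, with 18.6%, 18.3% and 17.5% in STD and 18.6%, 20.8% and 12.7% in ENR. Smaller stretches were at 6.55% (chr7:44351119-44351379, 5 sites), 17.3% (chr7:44351532-44351857, 9 coding sites) and 18.0% (chr7:44358499-44358698, 6 sites in an untranslated region). The longest coding exon, exon 22 of 3088 bp, held 68 sites with means between 0% and 45.1%, of which 53 were under 20%.

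Shank2 (ENSMUSG00000037541.21, chr7:144001928-144424494) differed from its relatives at the annotated gene start, which was outside any CpG-dense stretch. The 3 sites upstream of that start were methylated at 84.6%, 88.4% and 92.2% in STD and at 73.6%, 85.5% and 69.1% in ENR. The unmethylated starts of Shank2 were internal. Stretches 173 kb (28 sites) and 283 kb (14 sites) into the gene had means of 2.11% and 1.996%. Its intragenic stretches were at 27.4% (chr7:144052219-144052488, 5 coding sites), 16.9% (chr7:144132895-144133321, 15 intron sites) and 14.3% (chr7:144239042-144239329, 6 intron sites), and at 40.4% in the coding stretch printed above. That coding stretch was at 36.5%, 42.0% and 36.3% in STD and at 41.7%, 43.6% and 42.5% in ENR, and the groups overlapped. The 5-site stretch was at 29.4%, 9.01% and 23.4% in STD and at 23.9%, 38.5% and 40.03% in ENR, also with overlap. The longest coding exon of Shank2 had 0 measured sites.

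Over all 23 measured coding-exon sites of Shank2, methylation was 41.1%, 41.0% and 40.4% in STD and 42.2%, 46.7% and 46.6% in ENR. Every ENR mouse was above every STD mouse, with a difference of 4.31 points (two-sided exact permutation test, p = 0.1, the smallest that 3 against 3 allows). Of 34 combinations of a gene and a feature class (coding exon, untranslated region, intron and so on), groups did not overlap in 2, or 5.88%, against 8.33% of all gene means. The other was the 3 coding-exon sites of Dlg4, at 1.94% in STD and 7.76% in ENR. These 3 sites are part of the internal start stretch of Dlg4 described below and are not a separate observation. The 104 intron sites of Shank2 had means of 28.5% ± 4.76 in STD and 26.7% ± 5.51 in ENR (SD, n = 3), and the groups overlapped.

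Shank3 (ENSMUSG00000022623.16, chr15:89499623-89560261) combined low methylation at its starts with the most methylated remainder of the 3 genes. Its start stretches had means of 2.35% at the gene start (35 sites), 8.27% at 23.9 kb (16 sites) and 10.8% at 33.0 kb (3 sites). The main intragenic stretch, in a coding exon of 2257 bp (exon 21; chr15:89547554-89548535, 22 sites), was at 14.9%. It was at 11.03%, 15.8% and 12.2% in STD and at 28.3%, 9.05% and 13.1% in ENR, so that ENR replicate 1 alone set the higher ENR mean. Outside CpG-dense stretches, 14 sites were at 68.0%, 68.8% and 65.1% in STD and at 67.5%, 66.3% and 37.1% in ENR. Here ENR replicate 3 stood apart from the other 5 mice. Against the same classes of other genes, Shank3 lay at percentile 87.8 for start stretches, 30.8 for intragenic stretches and 85.0 for the remaining sites. Shank1 lay at 43.1, 23.4 and 6.91, and Shank2 at 66.1, 40.1 and 41.6.

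**Figure D2:**
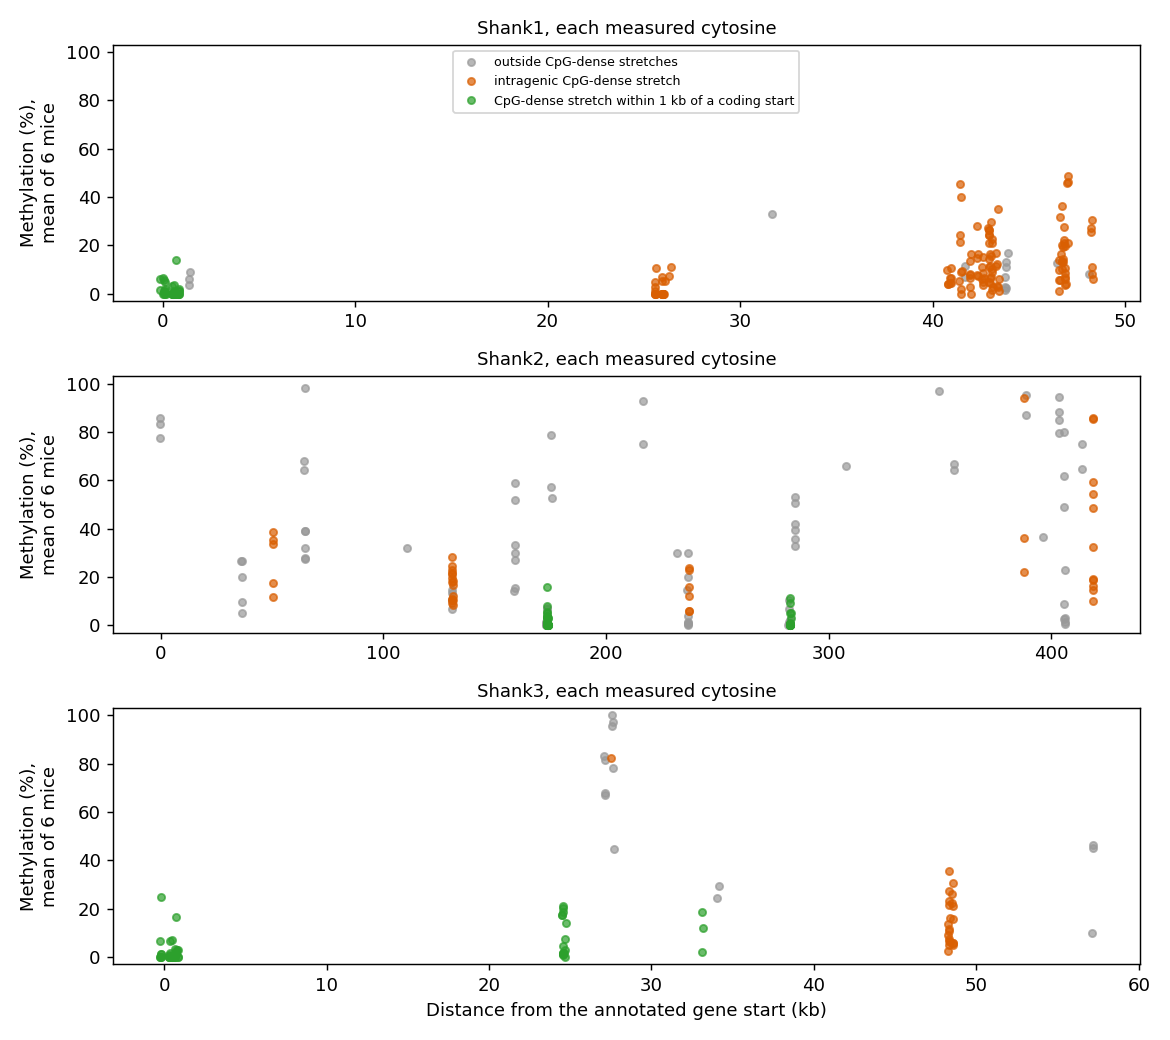
Methylation of each measured cytosine (%, mean of 6 mice, vertical axis) against the distance from the annotated gene start (kb, horizontal axis, scaled to each gene), with green points in start stretches, orange points in intragenic CpG-dense stretches and grey points elsewhere. Shank1 has no site over 80%, Shank2 has methylated sites at its annotated start and unmethylated internal starts, and Shank3 has a group of methylated sites between an internal start and the coding stretch near its end.

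Genes with the most similar profile were found by the distance in mean methylation over start stretches, intragenic stretches and remaining sites among 1721 protein-coding genes. For Shank1 they were Erf (distance 1.52 points) and Ckap5 (2.55), for Shank2 Rbfox3 (1.42) and Iffo2 (1.77), and for Shank3 Npas1 (0.322) and Megf10 (2.01). The closest pair, Shank3 and Npas1, were at 4.58% and 4.73% in start stretches, 17.9% and 17.6% in intragenic stretches, and 62.1% and 61.9% elsewhere. These are descriptions of means over the same 6 libraries.

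Dlg4 (ENSMUSG00000020886.17, chr11:70016942-70047522) was lowly methylated, with a mean of 8.65% over 49 sites and no site with a mean over 80%. Its intragenic stretch (chr11:70021116-70021990, 7 sites) was at 0.705%. Of its start stretches, that nearest the gene start (9 sites) was at 2.39%. The other, 9.88 kb into the gene at the start of an internal protein-coding transcript, is described below with the comparison of groups.

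The Dlgap family spanned the widest range. Dlgap2 (ENSMUSG00000047495.15, chr8:14095865-14847680) had the highest gene mean of the 9, 32.0% over 216 sites, while its gene start (88 sites) was at 2.14%. Its CpG-dense coding stretches were nearly fully methylated, at 92.4% (chr8:14727288-14727522, 11 sites) and 95.3% (chr8:14831477-14831707, 8 sites). Single mice ranged from 88.0% to 95.9% in the first of these, so no mouse came near the Shank1 coding stretch, which was at 18.0% or less. The intragenic stretch of Dlgap2 with most sites was in an intron (chr8:14113321-14113810, 17 sites) and was at 28.2%, with a range from 16.3% to 51.4% within STD alone. Dlgap1 (ENSMUSG00000003279.17, chr17:69969073-70821413) had a mean of 18.9% over 195 sites. Its coding stretch near the gene end (chr17:70817864-70818526, 24 sites) varied widely between mice, at 23.5%, 24.2% and 6.13% in STD and 41.3%, 21.5% and 11.4% in ENR. Replicate 3 was the lowest in each group.

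Dlgap3 (ENSMUSG00000042388.14, chr4:127169204-127237022) had an unmethylated stretch at its far end (chr4:127235840-127236821), 66.6 kb from its start. The 37 sites, 27 of them in an untranslated region, were at 3.17%, although the nearest protein-coding start lay 6963 bp away. Its 27 sites outside CpG-dense stretches were at 64.8%. Dlgap4 (ENSMUSG00000061689.15, chr2:156613705-156764363) had a mean of 10.9% over 175 sites, of which 66 were at 0% in all 6 mice. Its intragenic stretch with most sites (chr2:156625427-156625627, 11 intron sites) was at 39.9%. Homer1 (ENSMUSG00000007617.18, chr13:93299635-93405129) was the least methylated, at 3.80% over 79 sites. Of these sites, 75 lay in 1 stretch around an internal start 3.66 kb into the gene (1.14%), 46 were at 0% in every mouse, and it had no intragenic stretch.

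Some sites lie in genes on the opposite strand, and methylation of a CpG cannot be assigned to either gene. Such sites were 36 of Dlgap1 in 5031415H12Rik and 7 in AC079441.1, 27 of Dlgap4 in 4930405A21Rik, 17 in Gm14174 and 4 in Gm14169, and 10 of Shank2 in Gm14372.

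To ask whether ENR changed methylation of the scaffold genes, gene means were compared between groups. The groups overlapped in all 9 genes. Among 20891 genes with at least 5 sites, groups did not overlap in 8.33%. The order of the genes by level was the same in STD and ENR, from Homer1 through Dlg4, Shank1, Dlgap4, Shank3, Dlgap1, Dlgap3 and Shank2 to Dlgap2. Homer1 was below Dlg4, the next gene, in a comparison of any mice, whereas the ranges of all other neighbours in this order overlapped. Among 15362 protein-coding genes their means lay between percentiles 32.3 (Homer1) and 81.3 (Dlgap2). Limma, with mice as replicates, called 0 of the 9 genes and 0% of all genes (adjusted p = 0.999892 for each member). An unadjusted limma p-value under 0.05 was found for 0 of the 9, against 771 of the 20884 genes tested.

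Shank1 was at 9.38%, 8.87% and 10.3% in STD and at 9.17%, 12.0% and 8.13% in ENR, a difference of 0.236 points (two-sided exact permutation test, p = 0.9). Shank2 was at 27.9%, 26.0% and 21.8% in STD and at 26.8%, 26.2% and 20.7% in ENR (difference -0.682 points, exact permutation p = 0.7). Shank3 was at 17.7%, 18.3% and 16.9% in STD and at 19.8%, 16.5% and 11.4% in ENR (difference -1.72 points, exact permutation p = 0.7). Shank3 had the largest difference of the 9 genes, and it became 0.528 points without ENR replicate 3. Dlg4 was at 12.3%, 8.35% and 6.32% in STD and at 8.83%, 6.64% and 9.46% in ENR (exact permutation p = 0.9). Homer1 was at 5.12%, 3.58% and 2.59% in STD and at 4.68%, 2.40% and 4.42% in ENR (exact permutation p = 1). In both, the spread among STD mice exceeded the difference between groups.

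Dlgap2 was at 34.0%, 35.2% and 29.1% in STD and at 33.5%, 32.5% and 27.4% in ENR (difference -1.64 points, exact permutation p = 0.5). The other Dlgap genes had differences of -0.120 (Dlgap1), -0.169 (Dlgap3) and -0.965 points (Dlgap4), with exact permutation p-values from 0.7 to 1. The mean of the 9 gene means was 16.6% ± 1.69 in STD and 16.0% ± 1.93 in ENR (SD, n = 3). The difference of -0.629 points was smaller than either SD. It became 0.0453 points without STD replicate 1 and 0.404 without ENR replicate 3. Of the 9 genes, 7 were lower in ENR, with a median difference of -0.674 points. Over all genes 57.8% were lower, with a median of -0.183.

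**Figure D3:**
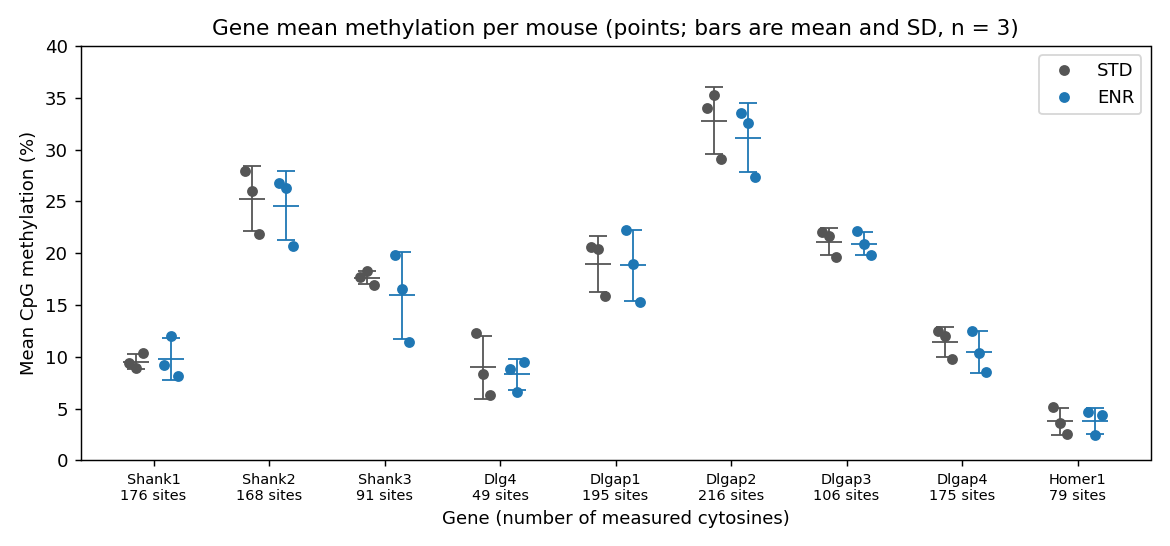
Mean methylation (%, vertical axis) of each scaffold gene in each mouse (points, STD grey, ENR blue, replicates 1 to 3 from left to right), with the group mean and SD as bars (n = 3). The order of the genes by level holds in both groups from Homer1, at 3.76% and 3.83%, to Dlgap2, at 31.1% to 32.8%, and the groups overlap in every gene.

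Libraries differed more than groups did. Replicate 3 was the lowest in both groups. At the 298 scaffold sites with a mean of 20% to 80%, methylation was 45.2%, 44.1% and 33.0% in STD and 46.0%, 41.1% and 30.1% in ENR. Over all measured sites the libraries were at 24.3%, 24.1% and 22.5% in STD and at 24.2%, 23.9% and 21.3% in ENR. Promoters of the granule neuron markers Prox1, C1ql2 and Dsp were at 0.885% to 2.17%, while those of the other measured markers ranged from 1.34% to 38.1% for astrocytes (4 genes), 1.52% to 52.4% for oligodendrocytes (Mag and Cnp) and 20.4% to 59.99% for microglia (Aif1 and P2ry12). Granule neuron promoters averaged 1.84%, 1.52% and 1.33% in STD and 1.81%, 1.30% and 1.11% in ENR. Astrocyte promoters averaged 22.0%, 25.8% and 26.4% in STD and 18.5%, 20.2% and 22.5% in ENR, and all 4 had a lower mean in ENR, with overlapping groups. Oligodendrocyte promoters averaged 22.4%, 31.8% and 20.001% in STD and 42.7%, 16.9% and 27.9% in ENR, and microglial promoters 38.2%, 45.4% and 31.6% in STD and 30.4%, 49.7% and 46.0% in ENR. The part of cell composition in the differences between groups was not tested. Only 11 of the 18 markers had measured promoter sites. In bulk tissue, another mix of cell types and another methylation level within a type cannot be told apart.

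Among CpG-dense stretches, groups did not overlap in 2 of the 44 scaffold stretches with at least 3 sites, against 9.4% of all such stretches. Limma called 0 of the 44 and 0% of all 30395 tested. An unadjusted limma p-value under 0.05 was found at 1261 of the 30395, among them the same 2 scaffold stretches. Both were start stretches, and their values are given in full below because no other scaffold stretch of at least 3 sites separated the groups. They were thus picked for their values. Agreement among their sites, or with a mouse left out, is therefore not separate support.

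The internal start stretch of Dlg4 (chr11:70026821-70027190) had higher values in ENR. Over its 9 sites, methylation was 1.79%, 1.04% and 1.71% in STD and 16.1%, 6.54% and 14.8% in ENR. The lowest ENR mouse was above the highest STD mouse. The difference was 10.96 points (limma p = 0.00352, adjusted p = 0.992, and two-sided exact permutation p = 0.1, the smallest possible). It lay between 9.14 and 13.9 points when each mouse was left out in turn. Of the 9 sites, 8 were higher in ENR and 1 was at 0% in all mice. The last site, in the intron (chr11:70027161), was at 0% in each STD mouse and at 33.3%, 35.3% and 26.7% in ENR, and another (chr11:70027120) was at 4.0%, 0% and 3.57% in STD and at 50%, 0% and 42.9% in ENR. ENR replicate 2 was thus raised at some of the sites only. Over both start stretches of Dlg4 (18 sites), methylation was 1.68%, 2.06% and 2.65% in STD and 9.65%, 3.74% and 8.36% in ENR. The start stretch nearest the gene start did not share the difference, with means of 2.74% in STD and 2.03% in ENR and overlapping groups. The 24 sites of Dlg4 outside CpG-dense stretches were at 23.6%, 15.02% and 10.9% in STD and at 10.4%, 10.8% and 12.9% in ENR, so that the gene mean did not follow the stretch.

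The internal start stretch of Shank3 (chr15:89523476-89524405) had lower values in ENR. It also covers the start of Gm15609, a lincRNA on the opposite strand, in which 0 of the measured Shank3 sites lie. Over its 16 sites, methylation was 9.14%, 12.2% and 13.2% in STD and 7.41%, 6.47% and 1.21% in ENR. All ENR mice were below all STD mice, with the highest ENR value close to the lowest STD value. The difference was -6.48 points (limma p = 0.0254, adjusted p = 0.992, exact permutation p = 0.1), and -4.57 points without ENR replicate 3. Of the 16 sites, 15 were lower in ENR and 1 was at 0% throughout. At 6 of the 15, STD replicate 1 alone was above 0%, at 5.66% to 10%. At the first 5 measured CpGs of the sequence printed above, which are adjacent, ENR replicate 3 was at 0% while ENR replicates 1 and 2 were at 18.5% to 26.3%, within the STD range of 11.1% to 38.7%. The low ENR mean at these CpGs thus came from ENR replicate 3.

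**Figure D4:**
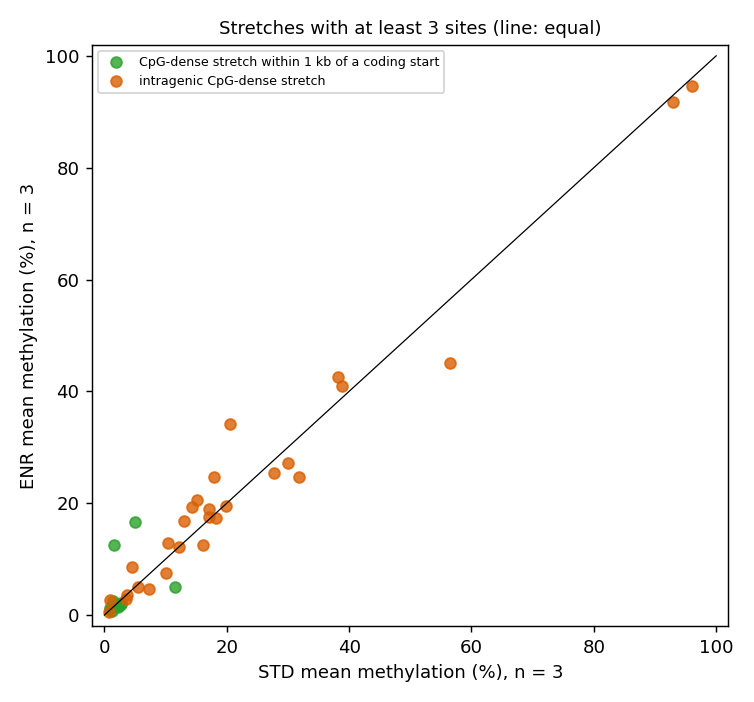
Mean methylation (%) of each CpG-dense stretch of the 9 genes with at least 3 sites in ENR (vertical axis) against STD (horizontal axis), n = 3 mice each, with start stretches in green, intragenic stretches in orange and equality as a line. Most stretches lie near the line, the Dlg4 internal start stretch lies above it at 1.51% in STD and 12.5% in ENR, and the Dlgap2 coding stretches lie over 90% in both groups.

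At single CpGs, 964 of the 1255 scaffold sites varied between mice and could be tested. Limma called 0 of them and 0% of 615152 sites (smallest adjusted p-value among scaffold sites 0.852). An unadjusted p-value under 0.05 was found at 18 scaffold sites, or 1.87%, against 2.68% of all sites. By size alone, group means differed by more than 25 points at 33 scaffold sites, or 2.63%, against 1.94% of all sites. Among sites with a mean of 20% to 80%, which were more frequent in these genes, the order was the other way, with 8.05% of scaffold sites against 11.03% of all sites. Of the sites over 25 points, 57.6% of the 33 scaffold sites and 63.6% of those among all sites were lower in ENR. Of the 1255 scaffold sites, 19 were over 25 points lower and 14 higher in ENR, against 1.23% and 0.706% of all 890041 sites. Shank2 and Dlgap1 had 8 such sites each, Dlgap2 had 6, Shank3 had 5, Dlg4 and Dlgap4 had 2 each, Shank1 and Dlgap3 had 1 each and Homer1 had 0. At 9 of the 33 (27.3%), every ENR mouse lay on the same side of every STD mouse, against 41.7% of all sites over 25 points. When each mouse was left out in turn, 6 of the 33 differences stayed over 25 points throughout, and 18 stayed so without ENR replicate 3. Among the sites over 25 points when ENR replicate 3 was left out, 30% were lower in ENR, against 57.6% with all mice, and without STD replicate 3 it was 81.4%.

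The sites with the lowest limma p-values among those that did not overlap are shown with 30 bases on either side of the measured CpG, which is in capitals (plus strand, mm10). The Dlg4 site at chr11:70027161 is the last measured CpG in the Dlg4 sequence printed above.
Shank2 intron, chr7:144358109-144358170: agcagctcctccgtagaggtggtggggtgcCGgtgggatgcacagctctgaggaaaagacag
Dlgap1 intron, chr17:70302575-70302636: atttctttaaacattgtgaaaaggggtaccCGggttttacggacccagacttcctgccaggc
Dlgap2 coding exon, chr8:14773278-14773339: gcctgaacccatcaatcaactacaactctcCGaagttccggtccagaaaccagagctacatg
Dlgap1 intron near the gene end, chr17:70809009-70809070: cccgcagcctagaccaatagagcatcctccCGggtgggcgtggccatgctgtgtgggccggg
Shank1 coding exon, chr7:44356941-44357002: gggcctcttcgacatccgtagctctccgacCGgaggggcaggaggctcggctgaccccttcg

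The sites lower in ENR lay in Shank2, Dlgap1 and Dlgap2. The Shank2 intron site was at 95.5%, 100% and 95% in STD and at 58.1%, 36.4% and 0% in ENR, the largest difference in the scaffold genes (-65.3 points). All ENR mice were lower, but they differed among themselves by more than 50 points, and no other measured site lay within 100 bp. The Dlgap1 intron site was at 21.3%, 25.7% and 42.6% in STD and at 0%, 2.78% and 6.82% in ENR (-26.6 points). The Dlgap2 coding site was at 94.5%, 91.5% and 100% in STD and at 87.4%, 83.1% and 34.6% in ENR, mostly through ENR replicate 3 (-27.0 points).

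Of the sites higher in ENR, the Dlg4 site differed by 31.8 points, and all 4 measured sites within 100 bp had the same direction. These 4 lie on the same strand in the stretch described above, which was picked for its values, so they are not separate support. The Dlgap1 site near the gene end was at 0%, 12.5% and 0% in STD and at 18.2%, 41.2% and 30.2% in ENR (25.7 points), and 1 of 3 neighbours had the same direction. The Shank1 coding site was at 15.4%, 4.35% and 37.5% in STD and at 68%, 50% and 41.7% in ENR (34.1 points), and 7 of 10 neighbours had the same direction, with a mean difference of 3.11 points. Limma gave these 6 sites unadjusted p-values from 0.00279 (Shank2) and 0.00461 (Dlg4) to 0.0789 (Dlgap2), an adjusted p-value of 0.852 for each, and the exact permutation p was 0.1, the smallest that 3 against 3 allows.

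In Shank3, 4 of the 5 sites over 25 points lay together in an intron (chr15:89526716-89526779) and were lower in ENR. This group was chosen after its values were seen. Its mean was 90.1%, 94.3% and 89.5% in STD and 88.1%, 86.8% and 0% in ENR. All 4 sites were at 0% in ENR replicate 3, and without that mouse the difference of -33.0 points became -3.82. The fifth Shank3 site was higher in ENR, by 29.8 points, and its groups overlapped.

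**Figure D5:**
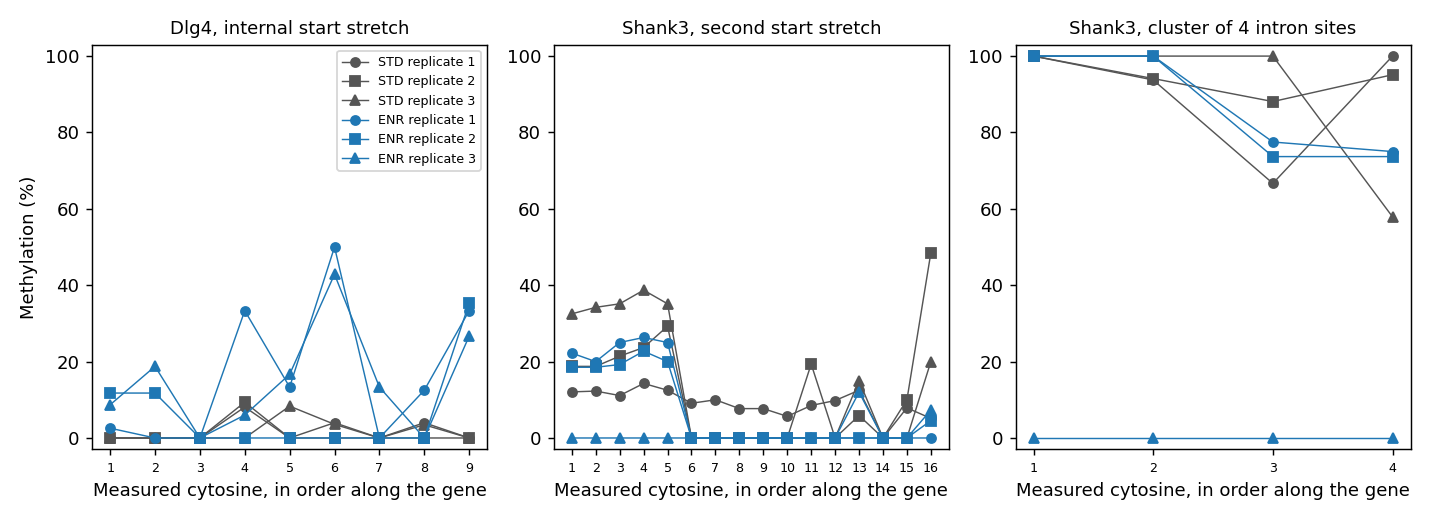
Methylation (%, vertical axis) of each measured cytosine in order along the gene (horizontal axis) in each mouse (STD grey, ENR blue, symbols for replicates 1 to 3) for the internal start stretch of Dlg4, the internal start stretch of Shank3 and the 4 Shank3 intron sites. In Dlg4 the last site separates all ENR mice from the STD mice at 0%, whereas in the Shank3 intron only ENR replicate 3, at 0%, is separate.

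Of 19 other scaffold and adaptor genes of the synapse, among them Dlg1, Dlg2, Dlg3, Homer2, Homer3, Baiap2 and Gphn, all had at least 5 sites. Their gene means were lower in ENR in 12 and higher in 7, with differences from -2.996 to 3.61 points and a median of -0.305. Limma gave 0 of the 19 an unadjusted p-value under 0.05, against 771 of the 20884 genes tested. The groups did not overlap in 1 of the 19 (5.26%, against 8.33% of all genes), Homer3, which was at 9.87% ± 0.252 in STD and 10.5% ± 0.0635 in ENR (SD, n = 3). Of their 1616 sites, 40 differed by more than 25 points (2.48%, against 1.94% of all sites), 22 of them lower in ENR.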

How the data were processed

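RRBS was performed on dentate gyrus of 6 individual mice (3 STD, 3 ENR), and the labels gave group and replicate number. According to the submitters' processing notes, the authors used Trim Galore 0.4.0, cutadapt 1.8.1, Bismark 0.16.1 (mm10) and methylKit 1.5.2, and per the study's methods cytosines with at least 10 reads were kept and the most deeply covered ones discarded. The deposited values are the percent of reads methylated at each cytosine, so read depth per site is unknown and no interval that needs it is given. The study's test on read counts could not be run on percentages.

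Genes followed GENCODE M21, and strands were separate sites. Sites, gene means (at least 5 sites) and CpG-dense stretches (at least 3 sites) were tested across the whole table with limma 3.58.1 (in R 4.3.3, moderated with a trend of variance on level, Benjamini-Hochberg adjustment). Calls needed an adjusted p-value under 0.05, and a difference over 25 points for sites or over 10 points for stretches. Single values were compared by exact permutation over 20 regroupings, or by 64 sign flips within mice. The procedure was also run on data with simulated shifts. The outcome is not given here, so that run lends no support to the absence of calls. All intragenic stretches of Shank1 to Shank3 with at least 5 sites, and in the other genes that with most sites, are named. Among sites over 25 points with groups apart, the 3 with the lowest limma p-value in each direction are named. Members and lists were chosen with earlier results of these data known. Of the list of other scaffold genes, 1 gene is not reported here. Alternatives covered scale, variance model, normalization, thresholds, windows, strand averaging, each mouse left out and a replicate block.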

Additional observations from a re-analysis of the deposited data

How the results depend on the processing

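No scaffold site, gene or stretch was called by limma under any of the alternatives run (other scale, variance model, normalization, thresholds, strand averaging, minimum number of sites, each mouse left out), nor with the replicate number as a block. With this replicate block, 0 sites, 0 genes and 0 stretches were called, and the smallest adjusted p-value was 0.882 for sites, 0.958 for genes and 0.962 for stretches. Same-numbered mice of the 2 groups deviated together only weakly (r = 0.0413, 0.0251 and 0.0899 across 129682 sites, which are not independent). For replicate 1 of a group with replicate 2 of the other, r was 0.0241 and 0.0275. For replicate 3 with replicates 1 and 2 of the other group, r was -0.0590 to -0.0414. A property shared by replicate 3 of both groups was not tested. The numbers were not taken to pair the mice, and with 1 mouse of each group per number the block cannot change a difference of group means.

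The mean difference over the 9 genes was -2.89 points at sites of 20% to 80%, -0.127 with centred libraries, -0.0330 with quantile normalization, and -1.58 to 0.404 with 1 mouse left out. Scaffold sites over 25 points numbered 71 at a limit of 20 points, 3 at 40 points, 54 with group medians, and 40 to 64 with 1 mouse left out. The Shank intragenic minus start difference was 12.4 to 13.2 points with 1 mouse left out, where 5 mice cannot give an exact sign-flip p under 0.0625. The difference of every gene changed sign under some alternative, in Shank3, Dlgap2 and Dlgap4 only without ENR replicate 3, and the cause was not tested. With medians over sites it was -2.55 in Shank1 and 0.532 in Shank2, both with changed sign. It kept its sign at -4.14 in Shank3, -1.28 in Dlg4, -0.0520 in Dlgap1, -3.88 in Dlgap2 and -1.25 in Dlgap3, and was 0 in Dlgap4 and Homer1. Without sites within 1 kb of a transcript start it was -0.158 in Shank1, 2.22 in Dlg4 and -5.49 in Homer1. At sites of 20% to 80% it was -15.01 in Dlg4 (8 sites, same sign), 0.244 in Dlgap1, 3.57 in Dlgap3 and -5.49 in Homer1. In Dlgap2 and Dlgap4 it was -3.58 and -3.01 at these sites, with the same sign. With centred libraries it was 0.381 in Dlgap1 and 0.332 in Dlgap3. With quantile normalization it was 0.0589 in Shank2, 0.389 in Dlg4, 0.712 in Dlgap1 and 0.290 in Dlgap3, and with strands averaged 0.0381 in Dlgap3. With 1 mouse left out, it ranged from -0.879 to 1.05 in Shank1, from -2.39 to 1.24 in Shank2, from -3.67 to 0.528 in Shank3, from -2.004 to 0.976 in Dlg4, from -1.81 to 1.63 in Dlgap1, from -3.47 to 0.253 in Dlgap2, from -0.917 to 0.387 in Dlgap3, from -1.98 to 0.0191 in Dlgap4 and from -0.518 to 0.786 in Homer1. The number of reads per site, and with it the counting error, is unknown.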
